A study of Mus musculus with 24 samples.

Results

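The genes described here are 8 of the 53715 genes in the deposited expression table, chosen by symbol as ligands and receptors through which a myeloid cell speaks to lymphocytes: Cd274, Pdcd1lg2, Cd80, Cd86, Icosl, Cd40, Cd83 and Cd72. All 8 were in the table and all 8 reached a value of 50 in at least 1 library, which was the condition for testing and left 11230 genes. Pdcd1lg2 and Cd72 reached it in 8 libraries each, all of them Ly6Clo libraries, so these genes entered the tests through the group in which they were high.

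RNA-sequencing was done on Ly6Chi and Ly6Clo cells sorted by flow cytometry from the peripheral blood of C57BL/6 mice aged 8 to 10 weeks. N2ΔMy mice carry loxP-flanked Notch2 and a Cre recombinase driven from the Lyz2 locus, which is active across myeloid cells and not in monocytes alone, and their littermate controls are called wt. Both genotypes also carry a GFP reporter in 1 allele of Cx3cr1, and sorted cells were GFP+CD115+CD11b+ and negative for MHC-II and for lineage markers of T, B and NK cells, neutrophils and erythrocytes. IMQ mice received 50 mg a day of Aldara, a cream with 5% imiquimod, a TLR7 agonist, on depilated skin, Sham mice received Vaseline per the labels, and the sort was on day 5. The study's methods for sequencing call the controls untreated, so whether these mice received the control cream is not settled by the sources. There were 24 libraries in 6 groups of 4: Ly6Chi cells of wt and of N2ΔMy mice after Sham, the same cells of both genotypes after IMQ, and Ly6Clo cells of both genotypes after IMQ. No Ly6Clo library of Sham mice was analysed here, so subset is compared after IMQ only and treatment in Ly6Chi cells only. The labels number the libraries of a group 1 to 4 without naming the mice, so the p-values measure the spread between these libraries.

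A T cell that recognizes its peptide on MHC reads further signals from the presenting cell. CD80 and CD86 bind the activating receptor CD28 and the inhibitory receptor CTLA-4, ICOSL binds ICOS on helper T cells, and PD-L1 and PD-L2, encoded by Cd274 and Pdcd1lg2, bind the inhibitory receptor PD-1. CD40 is a TNF-receptor family member that T cells engage with CD40L, CD83 stabilizes MHC-II and CD86 at the surface of mature dendritic cells, and CD72 is a lectin-like receptor with inhibitory motifs, best known on B cells, that binds semaphorin CD100.

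Values are normalized counts, rounded to whole numbers by the authors. Reads per library, inferred from the gaps in these whole numbers, lay between 9524061 and 19763898. Notch2, the targeted gene, lay between 12656 and 20005 in the 12 wt libraries and between 7240 and 11518 in the 12 N2ΔMy libraries, so it was lower in each N2ΔMy group but not absent. These are counts over the whole gene and do not measure the loxP-flanked part alone. Of the 9 markers of Ly6Chi monocytes 9 were lower, and of the 13 markers of Ly6Clo monocytes 12 were higher, in Ly6Clo than in Ly6Chi libraries of either genotype. Cd3e was at 0 in all 24 libraries. Library names in the labels fall into 2 series, replicates 1 and 2 in the first and 3 and 4 in the second, and differences are given within each series where they are described in full. In sorted bulk RNA, fewer cells that carry a transcript and less of it per cell cannot be told apart.

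On GRCm38, 4 of the genes form 2 pairs. Cd274 (chr19:29367455-29388095, plus strand) and Pdcd1lg2 (chr19:29410919-29471157, plus strand) are neighbours 22823 bases apart, and Cd86 (chr16:36603869-36666081, minus strand) and Cd80 (chr16:38458933-38486933, plus strand) share a chromosome at a distance of 1792851 bases. Icosl is at chr10:78069302-78083913 (plus), Cd40 at chr2:165055627-165072948 (plus), Cd83 at chr13:43784775-43803132 (plus) and Cd72 at chr4:43446462-43454628 (minus). The end of Cd72 overlaps Tesk1, a kinase gene on the opposite strand whose values lay between 194 and 856. Whether strand was used in counting is not given in the sources used here.

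RefSeq promoter windows (GRCm38.p6) were at hand for 5 of the 8 genes. The stretches before the transcription start are shown for Cd274, Pdcd1lg2 and Cd72, which were higher in Ly6Clo than in Ly6Chi cells of both genotypes, and for Cd80, whose subset difference changed sign with genotype. Parts that GENCODE annotates as exon were left out, which shortened the Cd274 stretch to the 47 bases beyond the end of Plgrkt. They are written 5′ to 3′ on the gene's strand, with matches to any of the 9 searched motifs in capitals.
Cd274, chr19:29367391-29367437, plus strand: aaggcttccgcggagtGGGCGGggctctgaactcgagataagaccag
Pdcd1lg2, chr19:29410669-29410918, plus strand: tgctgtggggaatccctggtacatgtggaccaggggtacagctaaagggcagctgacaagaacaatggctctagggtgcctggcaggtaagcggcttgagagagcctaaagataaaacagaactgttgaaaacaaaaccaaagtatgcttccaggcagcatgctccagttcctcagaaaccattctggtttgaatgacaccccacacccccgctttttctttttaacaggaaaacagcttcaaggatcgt
Cd72, chr4:43454629-43454876, minus strand: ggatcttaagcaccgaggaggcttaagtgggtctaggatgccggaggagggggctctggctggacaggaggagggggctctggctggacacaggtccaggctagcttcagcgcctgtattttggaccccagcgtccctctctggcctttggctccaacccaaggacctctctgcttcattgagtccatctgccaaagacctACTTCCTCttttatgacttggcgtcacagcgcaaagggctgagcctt
Cd80, chr16:38458683-38458932, plus strand: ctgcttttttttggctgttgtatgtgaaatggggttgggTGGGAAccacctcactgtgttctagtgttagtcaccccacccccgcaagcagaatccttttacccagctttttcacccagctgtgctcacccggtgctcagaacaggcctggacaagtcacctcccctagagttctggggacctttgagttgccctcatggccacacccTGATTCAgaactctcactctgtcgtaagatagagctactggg
The Cd72 stretch holds ACTTCCTC, the reverse complement of the PU.1-type ETS sequence GAGGAAGT, 49 to 42 bases before the start, and 2.44% of the 32851 promoters in the table hold GAGGAAGT or its complement in their 250 bases before the start. The shares given here and below are over full windows of that length, which the Cd274 stretch does not have. The Cd80 stretch holds the AP-1 sequence TGATTCA (searched as TGANTCA, in 6.75% of promoters) and the RBPJ core TGGGAA, the sequence bound by the DNA-binding partner of Notch, which is in 21.6% of promoters. Cd274 holds the GC box GGGCGG, in 32.7% of promoters, and the Pdcd1lg2 stretch has no match. The interferon response element (in 2.98% of promoters), the GAS element TTCNNNGAA (7.02%), the NF-kB sequence (0.356%), the C/EBP sequence TTGCNNAA (9.56%) and the NBRE AAAGGTCA (1.34%), all searched on both strands, were in none of the 4 printed stretches. A match or its absence is a description of these letters and not evidence of binding.

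The 6 groups differed in which of these genes made up most of the signal. Divided by transcript length, the sum over the 8 genes was 441 ± 10.7 normalized counts per kb in wt and 465 ± 36.1 in N2ΔMy Ly6Chi cells after Sham (mean ± SD, n = 4 here and below), 310 ± 14 and 309 ± 41.1 after IMQ, and 1159 ± 187 in wt and 875 ± 55.9 in N2ΔMy Ly6Clo cells. After Sham, Cd40 held the largest share of that sum, 32.2% ± 5.67 in wt and 35.6% ± 3.94 in N2ΔMy. After IMQ, Cd86 led in Ly6Chi cells, with 26.7% ± 2.40 and 30.0% ± 2.76. In wt Ly6Clo cells Cd274 and Cd72 together held most of it, 39.5% ± 4.42 and 34.4% ± 5.62, and Cd40 held 0.744% ± 0.377. In N2ΔMy Ly6Clo cells the shares of Cd274 and Cd72 were 27.2% and 24.5%, and Cd80 held 11.3% ± 3.04 against 1.99% ± 0.682 in wt.

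**Figure D1:**
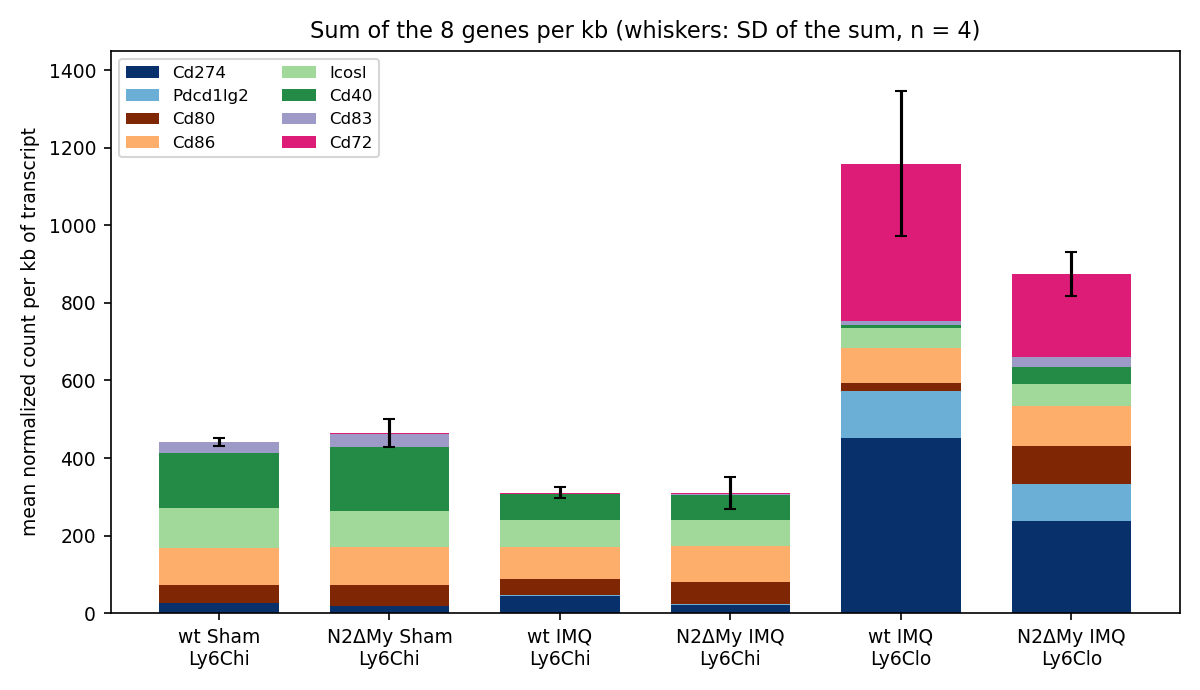
Stacked mean normalized counts per kb of transcript of the 8 genes in the 6 groups, with the SD of their sum (n = 4). The Ly6Clo bars reach 1159 in wt and 875 in N2ΔMy, mostly Cd274 and Cd72, while Cd40 and Cd86 make up much of the Ly6Chi bars.

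Differences between groups were tested with limma on log2(value + 1), and a gene was called where the difference was at least 0.6 and p was at most 0.05 after Benjamini-Hochberg adjustment over all tested genes. Between wt Ly6Clo and Ly6Chi cells after IMQ 6 of the 8 genes were called, 4 higher (Cd274, Pdcd1lg2, Cd83, Cd72) and 2 lower (Cd80, Cd40), where 24.6% of all tested genes were called, 11.9% higher and 12.7% lower, and 6 of the 8 did not overlap between the groups, against 35.4% of all genes. The same comparison in N2ΔMy cells called 5, all higher (Cd274, Pdcd1lg2, Cd80, Cd83, Cd72), against 17.4% of all genes, with 9.01% higher. Pdcd1lg2 and Cd72 passed the filter only through Ly6Clo libraries, and the 8 genes were chosen with earlier results known. These counts are therefore a description and not a test of the set. IMQ against Sham in Ly6Chi cells called 3 in wt (Cd274 higher, Cd40 and Cd83 lower, against 9.49% of all genes, 4.43% higher and 5.07% lower) and 2 in N2ΔMy (Cd40 and Cd83 lower, against 8.70% of all genes and 4.55% lower). Genotype called 5 in Ly6Clo cells (Cd80, Cd40 and Cd83 higher and Cd274 and Cd72 lower in N2ΔMy, against 4.78% of all genes, 3.12% higher and 1.67% lower), and the median difference of the 8 genes there was 0.15 against a median of 0.00 over all genes. Genotype called 0 of the 8 in Ly6Chi cells after IMQ, where 0.0267% of all genes were called and 1 of the 8, against 679 of all genes, had an unadjusted p under 0.05, and 0 after Sham, where 0.0178% were called and 0 of the 8, against 585 of all genes, had an unadjusted p under 0.05. The change of the genotype effect with treatment called 0 genes of all tested, with 177 of all and 0 of the 8 at an unadjusted p under 0.05 in limma. The comparisons share groups, so their calls are not independent.

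**Figure D2:**
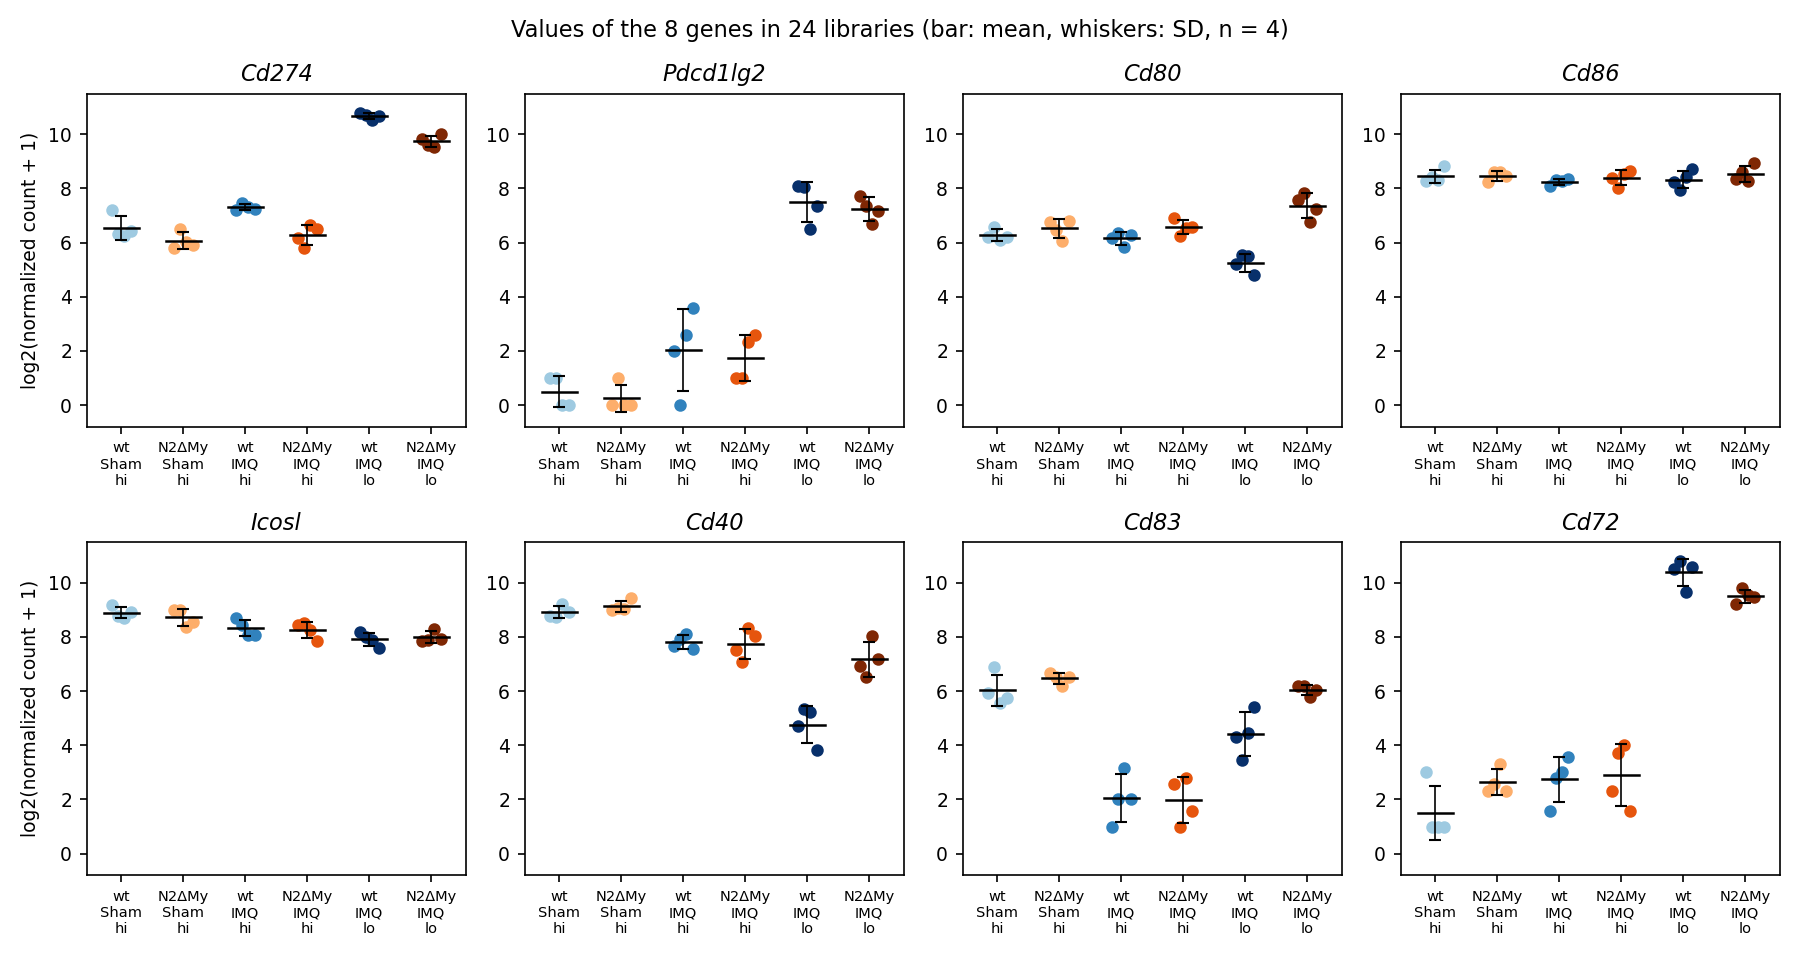
Values of each gene in the 24 libraries on the scale log2(normalized count + 1), 1 panel a gene, with the mean (bar) and SD (whiskers) of 4 libraries. Cd274, Pdcd1lg2 and Cd72 stand high in both Ly6Clo groups, Cd83 falls to between 1 and 8 in Ly6Chi cells after IMQ, and Cd86 stays between 244 and 486 throughout.

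Cd274, which encodes PD-L1, was the most abundant of the genes in wt Ly6Clo cells per kb. Its normalized counts were 1756, 1677, 1473 and 1648 in wt Ly6Clo cells and 912, 773, 743 and 1016 in N2ΔMy Ly6Clo cells. In Ly6Chi cells after IMQ they were 148, 174, 158 and 151 in wt and 71, 55, 100 and 89 in N2ΔMy. Ly6Clo cells thus stood far above Ly6Chi cells in both genotypes, and within each of these subsets no N2ΔMy library reached a wt library. After Sham the Ly6Chi values were 147, 79, 75 and 84 in wt and 55, 90, 64 and 59 in N2ΔMy, which overlapped.

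On the log2 scale Cd274 was higher in Ly6Clo than in Ly6Chi cells by 3.37 ± 0.11 in wt and 3.46 ± 0.20 in N2ΔMy (difference ± SE, limma adjusted p = 1.61e-08 and 9.03e-07), a ratio of means of 10.4 and 10.9. Cd274 was lower in N2ΔMy than in wt, with a log2 difference of -0.94 ± 0.12 in Ly6Clo cells (adjusted p = 0.00121 in limma, -1.03 in the first and -0.84 in the second library series). That call was lost with the second series alone. In Ly6Chi cells after IMQ the difference was -1.03 ± 0.21, of like size, with a limma adjusted p of 0.337 that missed the threshold, and with replicate number as a block the adjusted p was 0.0354, where 0.481% of all genes were called. The wt and N2ΔMy libraries did not overlap there, with an exact two-sided permutation p = 0.0286 that is the lowest possible for 4 against 4, and 3.84% of all genes had non-overlapping libraries in this comparison. Of the 13 Ly6Clo markers 0 were called (5 with the block, with a list median of -0.54), and sums of Ly6Chi markers, 240299 to 293456 in N2ΔMy against 173524 to 220587 in wt, and of macrophage markers, 5861 to 8603 against 3962 to 5496, did not overlap. Their part in this Cd274 difference was not tested. The difference between the genotype effects in the 2 subsets was 0.09 (95% interval -0.38 to 0.56), so a genotype effect that depends on subset was not detected. IMQ was followed by higher Cd274 in wt Ly6Chi cells, by 0.76 ± 0.23 (limma adjusted p = 0.0448, 0.57 and 0.95 within the series), a call that was lost in 11 of 20 alternatives, including the omission of any 1 library other than wt Sham replicate 1, which at 147 stood above the rest of its group. In N2ΔMy Ly6Chi cells the change after IMQ was 0.22 ± 0.26 and not called, and the difference of these 2 changes, -0.54 (interval -1.26 to 0.18), was not called either.

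Pdcd1lg2, which encodes PD-L2, was seen almost only in Ly6Clo cells. Its values there were 271, 261, 90 and 164 in wt and 212, 164, 101 and 142 in N2ΔMy, and the genotypes overlapped. In the 16 Ly6Chi libraries it lay between 0 and 1 after Sham and between 0 and 11 after IMQ, which is a few reads at this depth. The log2 difference between subsets was 5.46 ± 0.69 in wt and 5.51 ± 0.49 in N2ΔMy (limma adjusted p = 1.34e-04 and 1.43e-05), and since the Ly6Chi values were near 0 its size varied over the alternatives, from 3.75 to 7.06 in wt. Between N2ΔMy and wt Ly6Clo cells it differed by -0.27 ± 0.35 (interval -1.05 to 0.52), which was not called. Log2 differences of Pdcd1lg2 between Ly6Chi groups rest on values near 0 and cannot be read as folds.

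The genes on either side of this pair were also measured. Plgrkt, which lies 64 bases from Cd274, was higher in Ly6Clo cells by 1.11 in wt and 1.14 in N2ΔMy (both called), a smaller difference than that of Cd274. Ric1, which lies 51124 bases after Pdcd1lg2, differed by 0.53 and 0.51, under the fold required for a call. In Ly6Clo cells neither was called for genotype, with differences of -0.43 and -0.30.

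Cd80 was the gene whose subset difference had opposite signs in the 2 genotypes. Its values were 36, 45, 44 and 27 in wt Ly6Clo cells and 190, 229, 108 and 149 in N2ΔMy Ly6Clo cells, a gap without overlap. In Ly6Chi cells after IMQ they were 71, 81, 56 and 76 in wt and 119, 75, 92 and 95 in N2ΔMy, and after Sham 73, 95, 68 and 73 in wt and 108, 88, 65 and 111 in N2ΔMy, with overlap in both cases. The wt Ly6Clo group was thus the lowest of the 6 and the N2ΔMy Ly6Clo group the highest.

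In wt, Cd80 was lower in Ly6Clo than in Ly6Chi cells by a log2 difference of -0.90 ± 0.26 (limma adjusted p = 0.0208), and in N2ΔMy it was higher by 0.79 ± 0.25 (adjusted p = 0.0415). The wt call was lost in 5 of 20 alternatives, in either library series alone and without wt IMQ Ly6Chi replicate 2 or 4 or wt Ly6Clo replicate 4. In N2ΔMy the groups overlapped (exact permutation p = 0.0571), and the call was lost in 9 of 20 alternatives, among them the omission of any of 6 libraries, and was 1.13 in the first but 0.44 in the second library series. Of 9 tested macrophage markers 7 were higher in this N2ΔMy comparison, and of 8 conventional dendritic cell markers 3 were higher and 1 lower, against 9.01% of all genes called higher. Their part in the N2ΔMy subset differences of Cd80 and Cd83 was not tested. The genotype difference within Ly6Clo cells was 2.10 ± 0.28 (limma adjusted p = 0.00188, 2.34 and 1.85 within the series), a ratio of means of 4.45. That call was lost with the second series alone. In Ly6Chi cells after IMQ the genotype difference was 0.41 ± 0.21 and not called. The difference of these genotype effects was tested as an interaction and was 1.68 ± 0.35 (limma adjusted p = 0.0223), with 2.03 in the first and 1.34 in the second series, where 1.03% of all genes were called and 0.971% were called higher, and the call was lost without N2ΔMy Ly6Clo replicate 1 or 2 or without wt or N2ΔMy IMQ Ly6Chi replicate 2. Between IMQ and Sham, Cd80 in wt Ly6Chi cells differed by -0.12 (interval -0.60 to 0.35), which was not called.

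Cd86 was the steadiest of the genes. It lay between 244 and 486 in all 24 libraries, with group means from 303 ± 24.1 in wt Ly6Chi cells after IMQ to 378 ± 79.3 in N2ΔMy Ly6Clo cells, and every pair of groups next to each other in level overlapped. It was called in none of the 7 comparisons with limma and had an adjusted p of 0.656 in the F-test over the 6 groups, in which the other 7 genes were called and 43.0% of all genes were called. Its interval for genotype in Ly6Clo cells was -0.22 to 0.65 on the log2 scale. Per kb, Cd86 stood at 89.2 ± 20.6 against 22.3 ± 4.92 for Cd80 in wt Ly6Clo cells, and at 103 ± 21.7 against 99.4 ± 30.7 in N2ΔMy Ly6Clo cells, so that the pair was near parity only in the latter.

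**Figure D3:**
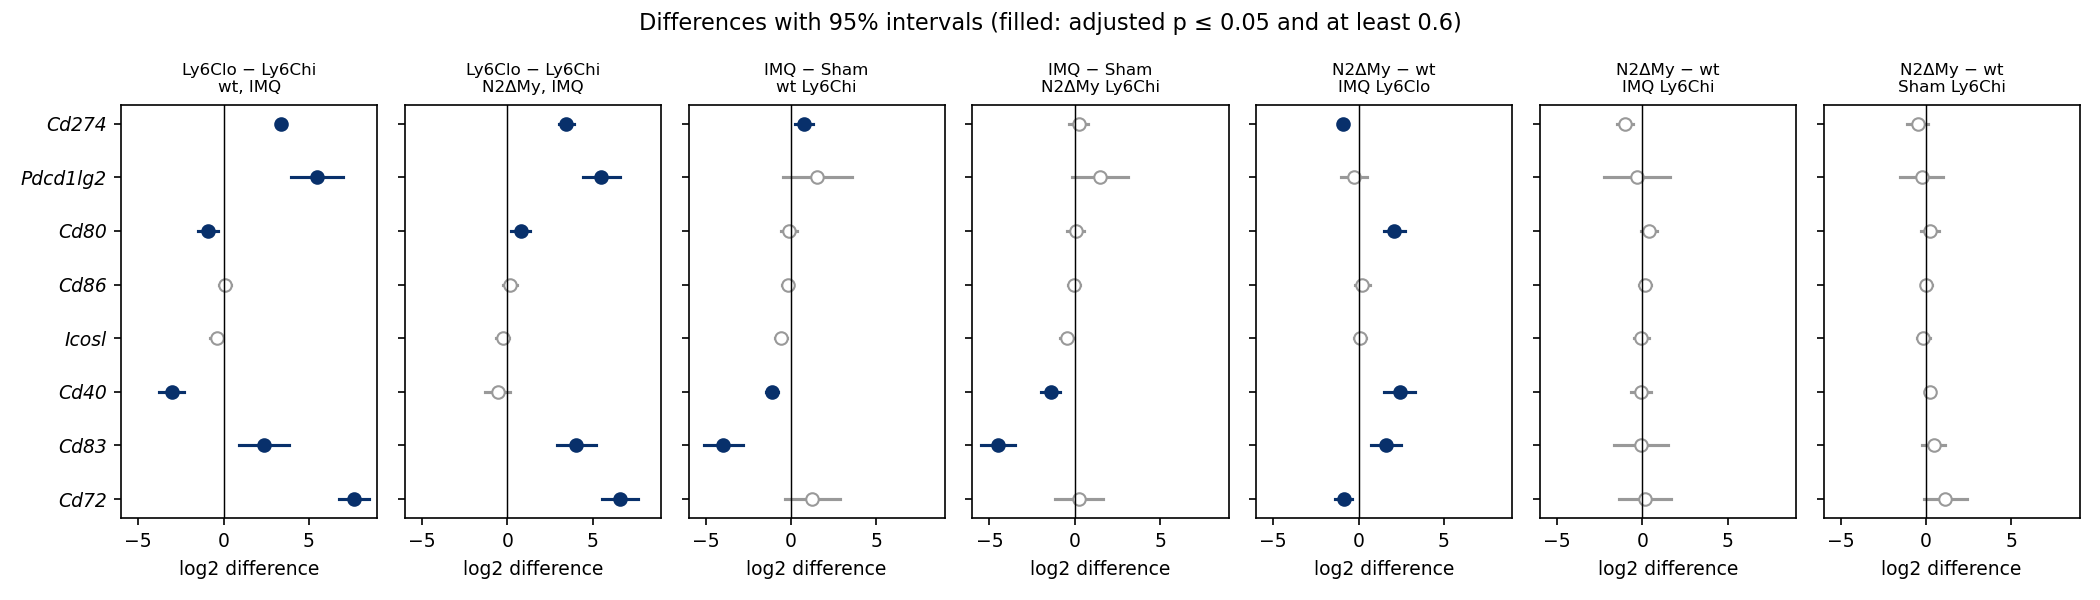
Log2 differences of the 8 genes in the 7 comparisons with their 95% intervals from limma, filled where called. Cd80 lies below 0 for subset in wt (-0.90) and above 0 in N2ΔMy (0.79), and Cd40 and Cd83 lie below 0 for IMQ in both genotypes.

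Icosl, the ICOS ligand, had its highest group means after Sham, with small steps between groups. Its values were 583, 440, 417 and 477 in wt and 510, 508, 330 and 373 in N2ΔMy Ly6Chi cells after Sham, 411, 347, 267 and 268 and 348, 367, 301 and 230 after IMQ, and 287, 255, 235 and 194 and 232, 237, 316 and 240 in Ly6Clo cells. Each group overlapped the next in order of level. The largest difference, IMQ against Sham in wt, was -0.58 ± 0.17 (limma adjusted p = 0.0391) and was not called because it was under 0.6, although these libraries did not overlap (21.5% of all genes did not). Genotype differences lay between -0.17 and 0.08 on the log2 scale, and none was called.

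Cd40, the receptor through which helper T cells license antigen-presenting cells, was highest in Ly6Chi cells after Sham. Its values there were 441, 421, 593 and 478 in wt and 511, 539, 518 and 687 in N2ΔMy, and after IMQ 201, 242, 274 and 185 in wt and 181, 133, 322 and 259 in N2ΔMy. All IMQ values were below all Sham values of the same genotype. In Ly6Clo cells they were 25, 39, 36 and 13 in wt and 120, 91, 260 and 146 in N2ΔMy, again without overlap.

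Cd40 was lower after IMQ in Ly6Chi cells, with log2 differences of -1.10 ± 0.16 in wt and -1.40 ± 0.25 in N2ΔMy (limma adjusted p = 0.00117 and 0.00463). Between Ly6Clo and Ly6Chi cells the difference was -3.05 ± 0.33 in wt (limma adjusted p = 4.32e-05) and -0.57 ± 0.34 in N2ΔMy, which was not called. In N2ΔMy the limma adjusted p was 0.260, or 0.0169 with replicate number as a block, where the difference stayed under 0.6. The genotype difference in Ly6Clo cells was 2.41 ± 0.41 (limma adjusted p = 0.00600, 1.71 and 3.11 within the series), against -0.07 ± 0.26 in Ly6Chi cells after IMQ. The interaction was 2.48 ± 0.51 (limma adjusted p = 0.0207), with 2.21 in the first and 2.75 in the second series, and lost its call without replicate 2 of either IMQ Ly6Chi group.

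Cd83, a marker of mature dendritic cells, had the largest difference after IMQ of the 8 genes. In Ly6Chi cells after Sham it was 60, 116, 46 and 52 in wt and 101, 90, 72 and 91 in N2ΔMy, and after IMQ 1, 3, 8 and 3 in wt and 5, 1, 6 and 2 in N2ΔMy. Both IMQ groups were near 0. The log2 differences were -3.98 ± 0.52 and -4.48 ± 0.44 (limma adjusted p = 6.48e-04 and 2.19e-04), of a size that varied over the alternatives, from -4.90 to -2.46 in wt and from -4.92 to -2.88 in N2ΔMy, and both calls held in all 20 alternatives. Genes used as markers of other cells also differed between IMQ and Sham in wt Ly6Chi cells, where Cd40 and Cd83 were lower. Of the 8 tested conventional dendritic cell markers 6 were lower, with sums of 1365 to 1829 after IMQ and 2756 to 4214 after Sham. Of the 6 tested neutrophil markers 4 were higher, with sums of 4448 to 11489 against 879 to 1377, and NK cell marker sums were 9 to 71 against 243 to 271. In N2ΔMy Ly6Chi cells 6 of the 8 dendritic cell markers were lower (sums of 1241 to 1492 against 2884 to 4266), 5 of the 6 neutrophil markers were higher (4798 to 11143 against 711 to 1401) and both tested NK cell markers were lower (9 to 70 against 200 to 259). Among the neutrophil markers, Ly6g was at 0 in all IMQ Ly6Chi libraries of both genotypes, and Camp in those of wt. The cells that the marker transcripts came from, and their part in the IMQ differences of Cd40, Cd83 and Cd274, were not tested.

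In Ly6Clo cells Cd83 was 19, 10, 21 and 42 in wt and 72, 71, 54 and 64 in N2ΔMy. These groups did not overlap with each other, where 12.8% of all genes did not, and the wt group lay under 50 throughout. Cd83 was higher than in Ly6Chi cells by 2.37 ± 0.67 in wt and 4.05 ± 0.51 in N2ΔMy (limma adjusted p = 0.0171 and 1.91e-04). The wt call was lost in 3 of 20 alternatives, with no filter on low values, in the second series alone and without wt Ly6Clo replicate 4. The genotype difference in Ly6Clo cells was 1.62 ± 0.40 (limma adjusted p = 0.0381), with 2.29 in the first and 0.96 in the second series. That call was lost in 10 of 20 alternatives, including the omission of any 1 Ly6Clo library except wt replicate 4. The interaction with subset was 1.67 (interval -0.03 to 3.37) and was not called.

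Cd72 had the largest subset difference of the 8 genes. Its values were 1468, 1760, 809 and 1522 in wt Ly6Clo cells and 595, 743 and 705 in N2ΔMy Ly6Clo replicates 1, 3 and 4, while the 16 Ly6Chi libraries lay between 1 and 15. The genotypes overlapped, since N2ΔMy Ly6Clo replicate 2 was higher than wt replicate 3 at 809. The subset difference was 7.64 ± 0.40 in wt and 6.60 ± 0.47 in N2ΔMy on the log2 scale (limma adjusted p = 5.00e-07 and 3.38e-06), with a range over alternatives of 6.38 to 8.46 in wt. The genotype difference in Ly6Clo cells was -0.88 ± 0.22 (adjusted p = 0.0418, exact permutation p = 0.0571, -1.14 and -0.62 within the series), a ratio of means of 0.527. That call was lost in 11 of 20 alternatives, including the omission of any 1 Ly6Clo library other than wt replicate 3.

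Since Cd72 is known from B cells, their markers are given beside it. The summed value of 15 B-cell markers lay between 1125 and 2328 in wt Ly6Clo, between 1404 and 2615 in wt IMQ Ly6Chi and between 2154 and 3417 in wt Sham Ly6Chi libraries. In N2ΔMy it was 1099 to 2362 in Ly6Clo, 1300 to 2869 in IMQ Ly6Chi and 2324 to 4021 in Sham Ly6Chi libraries. Of the B-cell markers, Cr2 and Iglc2 were at 0 in all 8 Ly6Clo libraries, Ms4a1 was at most 3, and Cd79a lay between 1 and 14 where it was between 0 and 5 in Ly6Chi libraries, against Cd72 values of 595 to 1760. Of the 4 markers that could be tested, Bank1 was higher in wt Ly6Clo cells and Bank1 and Spib in N2ΔMy Ly6Clo cells. Most of the sum was Ighm, so the sum does not speak for the other markers. The part of B cells in the Cd72 difference was not tested beyond these values. Platelet marker sums also were higher in wt Ly6Clo than wt IMQ Ly6Chi libraries, 1557 to 2249 against 269 to 508, but of the 4 tested markers 1 was called, Itgb3 (2.74), and Ppbp (0.32), Pf4 (0.44) and Itga2b (0.90) were not. The study lists Itgb3 with the genes of patrolling monocytes, so it is not a marker of platelets alone. Plasmacytoid dendritic cell marker sums were 3176 to 4017 against 2115 to 2380, and of the 4 tested markers Runx2 was higher (1.63), Bst2 was lower (-0.92), and Siglech (2.32) and Tcf4 (-0.08) were not called. Tesk1, which overlaps Cd72, was also higher in Ly6Clo than in Ly6Chi cells, by 1.5 in wt and 0.88 in N2ΔMy (both called), and its level was 695 ± 197 and 534 ± 54.3 in Ly6Clo cells. The part of Tesk1 reads in Cd72, or of Cd72 reads in Tesk1, was not tested. In Ly6Chi libraries Tesk1 lay between 194 and 479 with Cd72 at 15 or below.

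The balance within each pair was compared within libraries, which removes scaling between libraries except for values near 0, where the added 1 weighs. The log2 ratio of Cd86 to Cd80 was 3.02, 2.41, 2.92 and 3.92 in wt Ly6Clo cells and 0.78, 0.75, 1.51 and 1.70 in N2ΔMy Ly6Clo cells. Every wt library stood above every N2ΔMy library, with a difference of -1.88 and an exact two-sided permutation p = 0.0286, or 0.133 after adjustment over the 14 ratio tests. In Ly6Chi cells after IMQ the ratio was 2.09 ± 0.24 in wt and 1.83 ± 0.26 in N2ΔMy. The log2 ratio of Cd274 to Pdcd1lg2 was 3.18 ± 0.64 in wt and 2.51 ± 0.40 in N2ΔMy Ly6Clo cells (exact permutation p = 0.171, adjusted 0.343). None of the 14 tests passed the adjusted threshold, and 3 of the 14 were at 0.0286, the smallest p that the design allows. These 3 were adjusted to 0.133. A ratio without overlap could thus pass only if most of the 14 tests had reached that smallest p. The adjusted tests therefore cannot decide whether any single ratio differed, and their failure to pass is not evidence against a difference.

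**Figure D4:**
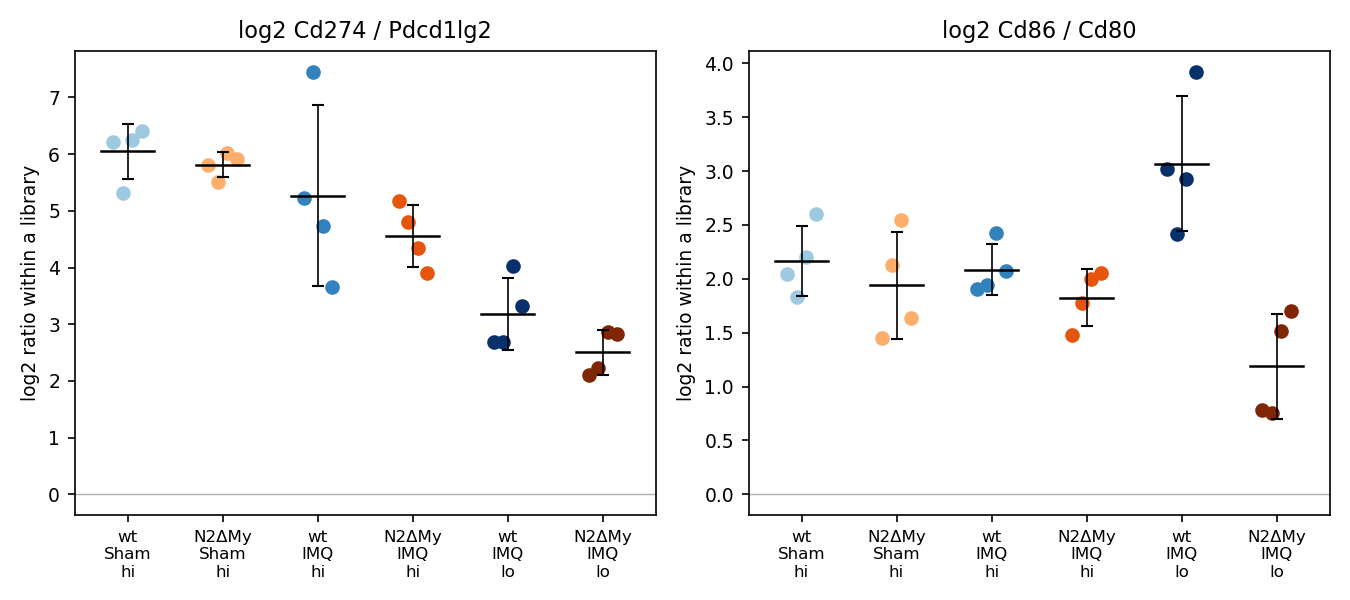
Log2 ratios of Cd274 to Pdcd1lg2 and of Cd86 to Cd80 in each library, with mean and SD by group (n = 4). The Cd86 to Cd80 ratio lies between 2.41 and 3.92 in wt Ly6Clo and between 0.75 and 1.70 in N2ΔMy Ly6Clo libraries. The Cd274 to Pdcd1lg2 ratio in Ly6Chi libraries rests on Pdcd1lg2 values near 0.

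Over the 24 libraries Cd274, Pdcd1lg2 and Cd72 followed one another, with Pearson correlations of log2 values of 0.95 for each pair, while Cd40 ran against Cd274 (-0.84). These values describe 6 groups, mostly the step between subsets, and share library and scaling. The tested genes with a mean of at least 100 most like Cd274 were Arhgap27 (0.98), L1cam (0.98) and Cyth3 (0.98), and those most like Pdcd1lg2 were Pecam1, Sipa1l1 and Frmd8 (0.97 each). Cd72 was most like Pecam1, Spred2 and Phtf2 (0.98 each), and Cd40 was most like Lgals9 (0.97), Rgs18 (0.97) and Clec10a (0.96). Cd83 was nearest to Sdc3, Fam46a and Zc3hav1 (0.90 to 0.91), and Icosl to Sp110 (0.92), a gene listed by a clone name (0.91) and Adar (0.91). Cd80 was nearest to a septin gene whose symbol the table holds as a date (0.90), then Timp2 and Jarid2 (0.86 each), and Cd86 had no gene above 0.72 (Med4).

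Other markers moved with Cd80, Cd40 and Cd83 between the genotypes of Ly6Clo cells. Of the 9 tested macrophage markers 8 were higher in N2ΔMy, and their summed value over 10 genes lay between 13153 and 17503 in N2ΔMy and between 5562 and 7423 in wt. Of the 9 Ly6Chi monocyte markers 5 were higher (8 called with replicate number as a block) and 0 lower, with sums of 39379 to 72072 against 4693 to 9275 in wt and 173524 to 220587 in wt IMQ Ly6Chi cells. Of the 13 Ly6Clo markers 7 were lower and 1 higher, with sums of 103430 to 118886 against 172772 to 202322. Of the 8 tested conventional dendritic cell markers 1, Clec10a, was higher (5 called with the block), and their summed value over 13 genes was highest in N2ΔMy Ly6Clo replicate 3, at 3761 against 999 to 2001 in the rest of its group. That library also had the highest Cd40 of its group, 260, and the lowest Cd80, 108, and Ccr7, a marker of mature dendritic cells, was at 0 in all 8 Ly6Clo libraries. Sums of platelet markers were 753 to 890 in N2ΔMy against 1557 to 2249 in wt. Of the 4 tested markers Itgb3, which the study lists with the genes of patrolling monocytes, was lower (-1.36), while Ppbp (-0.08), Pf4 (-0.53) and Itga2b (-0.38) were not called. Sums of plasmacytoid dendritic cell markers were 2411 to 2594 against 3176 to 4017, and Runx2 was lower (-0.94), while Siglech (1.25), Bst2 (0.53) and Tcf4 (-0.07) were not called. Of the 6 tested neutrophil markers Mmp8 (1.42) and Mmp9 (3.76) were higher, with sums of 380 to 790 against 203 to 565, while Ly6g and Elane were at 0 in all 8 Ly6Clo libraries. Neither of the 2 tested NK cell markers was called (Klrd1 was called with the block), with sums of 13 to 283 against 2 to 73. The cells that these marker transcripts came from, and their part in the differences of Cd80, Cd40, Cd83, Cd274 and Cd72, were not tested. Without N2ΔMy Ly6Clo replicate 3 the genotype calls of Cd80, Cd40 and Cd274 held. The differences of Cd83 and Cd72 were then as large, 1.71 and -0.89, but were not called, as when most other Ly6Clo libraries were left out.

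Genes of the same pathways are given by lists, whose counts stand against 24.6% of all genes called for subset in wt, 9.49% and 8.70% for IMQ in wt and N2ΔMy, and 4.78% for genotype in Ly6Clo cells. Of 11 tested other B7 and immunoglobulin-superfamily genes, 3 were higher and 4 lower in wt Ly6Clo than Ly6Chi cells, and Lgals9, which encodes galectin-9, was lower there by -2.39 ± 0.23 and higher in N2ΔMy than wt Ly6Clo cells by 1.88 ± 0.22 (limma adjusted p = 1.91e-05 and 8.83e-04). Cd200r1, an inhibitory receptor, showed the same order, at -3.35 and 2.76. Both were called for the interaction of genotype and subset, as were Cd80 and Cd40. The median of the list for genotype in Ly6Clo cells was 0.16, against 0.00 over all genes.

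Of 17 genes of CD40 and NF-kB signalling, 4 were higher and 1 lower in wt Ly6Clo than Ly6Chi cells, led by Traf1, a CD40-induced adaptor, at 2.82 ± 0.17, and Map3k14, the kinase NIK, at 1.38 ± 0.12. The 5 called of 17 are a share near that of all genes, and the median of the list was 0.28 against -0.01 over all genes. After IMQ 3 of the 17 were lower and 0 higher in wt Ly6Chi cells, Nfkbie (-1.12), Tnfaip3 (-1.06) and Traf5 (-0.81), beside the lower Cd40 and Cd83. In Ly6Clo cells 1 of the 17, Map3k14, was lower in N2ΔMy (-0.61), again a share near that of all genes.

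Of 15 genes of interferon signalling to PD-L1, 1 was higher and 3 lower after IMQ in wt Ly6Chi cells, and 1 and 3 in N2ΔMy. Stat2, which carries the interferon signal, was lower by -1.65 in wt and Socs1 by -1.64, while Socs3 was higher by 1.53, where Cd274 was higher by 0.76. Genotype called 1 of the 15 in Ly6Clo cells, Socs3, lower by -0.80 ± 0.09 (limma adjusted p = 4.37e-04). Of 9 tested genes for the turnover of PD-L1 and CD86 protein, Cmtm3 was lower in wt Ly6Clo than Ly6Chi cells (-0.90) and higher in N2ΔMy than wt Ly6Clo cells (1.07), and Btrc was higher in wt Ly6Clo than Ly6Chi cells (1.17).

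Of 11 tested CD72 partners and signalling genes, 4 were higher and 0 lower in wt Ly6Clo than Ly6Chi cells: Ptpn11 (1.05), Syk (0.65), Ptpn6 (0.63), which encodes the phosphatase SHP-1 that CD72 recruits, and Sema4d (0.63), which encodes its ligand CD100. None of the 11 was called for genotype in Ly6Clo cells (1 with replicate number as a block). Among 8 tested TNF-superfamily ligands Ltb was higher in Ly6Clo cells of wt by 4.20 ± 0.30 and lower in N2ΔMy than wt Ly6Clo cells by -1.07 ± 0.26. Among 10 tested TNF receptors other than CD40, 2 were higher in N2ΔMy Ly6Clo cells, Tnfrsf11a (1.04) and Tnfrsf21 (0.70).

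Of 12 genes of MHC class II presentation, 6 were lower and 0 higher after IMQ in wt Ly6Chi cells and 7 and 0 in N2ΔMy, among them H2-Ab1 (-2.38 and -2.59), where Cd40 and Cd83 were lower too. In N2ΔMy Ly6Clo cells against wt, 1 of the 12 was called, Cd74 (2.41 ± 0.59), while the list's median was 2.15, and 8 were called with replicate number as a block. The N2ΔMy Ly6Clo libraries stood far apart in these genes, with Cd74 at 8662 ± 6811 against 1529 ± 914 in wt and H2-Ab1 at 3455 ± 3448 (mean ± SD, n = 4). None of the 10 T-cell receptors of these ligands reached the value of 50 in any library.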

How the data were processed

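RNA of sorted blood Ly6Chi and Ly6Clo cells was sequenced with a stranded total RNA kit for low input. The authors trimmed reads with Trim Galore 0.4.4, aligned them to GRCm38.p6 with STAR 2.5.3a and counted them over GENCODE genes. The deposited values are a score: counts that the authors divided by DESeq2 size factors and rounded to whole numbers, so count models could not be used. The table also holds columns of the authors' own comparison (fold changes, standard errors, Wald statistics and p-values), which were not used. Sums of values per library lay between 13273508 and 14651770. The reads behind them, inferred from the spacing of low values, lay between 9524061 and 19763898, and a value of a few units is a few reads.

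The members and gene lists were chosen with earlier results of these data known. Genes that reached 50 in any library (11230 of 53715) were tested with limma 3.58.1 in R 4.3.3 (lmFit, eBayes with trend) on log2(value + 1), 2 groups at a time, and interactions over 4 groups. Calls needed a Benjamini-Hochberg adjusted p of 0.05 or less over all tested genes and a log2 difference of 0.6 or more, or 0.01 in the F-test. Fold changes on this scale understate those of low genes. Exact two-sided permutation tests used all 70 splits of 4 against 4 libraries. All 8 members were named in every comparison, with up to 4 called genes a direction from each list, the 3 genes most correlated with each member and its neighbours, of which those bearing on a result are given. Some genes of the lists are not reported here. A fit with the replicate number as a block was run because deviations of same-numbered libraries correlated in every pair of groups (r from 0.16 to 0.62). Within a library series the mean correlation was lower, 0.011 and -0.011 for IMQ against Sham, 0.11 to 0.19 for genotype and 0.23 to 0.24 for subset. Much of it thus follows the library series, and the labels name no pairs. Other alternatives were pseudocounts of 0.1 and 10, 2 other filters, 2 other scalings, limma without the trend, all 24 libraries in 1 fit, library series as a covariate, each series alone and each library left out. Scripts were tested on simulated data.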

Additional observations from a re-analysis of the deposited data

Results flagged for a closer look

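Of 60 groups of 4 libraries checked for a library far from the others, 5 had one, against about 1 in 20 by chance. Cd274 was 147 in wt Sham Ly6Chi replicate 1, where the others lay between 75 and 84, and Cd72 was 7 in the same library against 1 in the rest. Cd40 was 687 in N2ΔMy Sham Ly6Chi replicate 4, Icosl was 316 in N2ΔMy Ly6Clo replicate 3, and Pdcd1lg2 was 1 in N2ΔMy Sham Ly6Chi replicate 2 against 0, a difference of 1 unit. The genotype effect differed between the subsets by a limma interaction test for Cd80, by 1.68, and for Cd40, by 2.48 on the log2 scale.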

How the results depend on the processing

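Of 72 differences of the 8 genes 23 were called, and over 476 alternatives of these 413 kept the call, 63 lost it and 0 changed sign. The 49 not called gave 6 calls in 1092 alternatives. The number of members called for subset was 6 in wt and 4 to 6 over the alternatives (4 in the second series and without wt Ly6Clo replicate 4), 5 in N2ΔMy and 4 to 6 (6 in the first series), and for IMQ in wt 3 and 2 to 3. It went from 2 to 1 for IMQ in N2ΔMy with no filter on low values, and from 5 for genotype in Ly6Clo cells to 2 with no filter, 3 without the trend, 1 in the second series and 3 to 4 with 1 library left out. For genotype in IMQ Ly6Chi cells it went from 0 to 1 (Cd274) with all 24 libraries in 1 fit, with the replicate block and with series as a covariate. For genotype by subset it went from 2 to 0 with no filter and in the second series and 0 to 2 with 1 library left out, with 0 without wt or N2ΔMy IMQ Ly6Chi replicate 2. The replicate block changed no other call of a member. The cause of these changes was not tested. Over all genes the number called for genotype in Ly6Clo cells was 537 and 180 to 939 over alternatives (939 with the block), 3 and 0 to 54 (54 with the block) in IMQ Ly6Chi, 2 and 1 to 7 in Sham Ly6Chi, 116 and 18 to 271 (271 with the block) for genotype by subset, 0 and 0 to 1 for genotype by treatment, and 1066 and as low as 592 for IMQ in wt.

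Some differences that were not called changed sign or came to 0. With the first library series only they were, for subset in wt, Cd86 -0.10, for IMQ in N2ΔMy, Cd274 -0.17 and Cd80 -0.045, for genotype in Ly6Clo, Icosl -0.21, for genotype in IMQ Ly6Chi, Pdcd1lg2 0 and Cd83 0.29, for genotype in Sham Ly6Chi, Icosl 0.0071, for genotype by subset, Pdcd1lg2 -0.51 and Icosl -0.13, for genotype by treatment, Pdcd1lg2 0.50, Cd86 -0.056, Icosl -0.087, Cd83 0.10 and Cd72 0.36, for IMQ in wt, the Cd274 to Pdcd1lg2 ratio 0.57. With the second library series only they were, for subset in N2ΔMy, Icosl 0.066, for IMQ in N2ΔMy, Cd86 0.072 and Cd72 -0.029, for genotype in IMQ Ly6Chi, Cd40 0.36 and Cd72 -0.50, for genotype in Sham Ly6Chi, Pdcd1lg2 0 and Cd86 -0.042, for genotype by subset, Cd274 -0.14 and Cd86 -0.26, for genotype by treatment, Cd40 0.19. With a pseudocount of 0.1 they were, for genotype in IMQ Ly6Chi, Pdcd1lg2 0.13, for genotype by subset, Pdcd1lg2 -0.40, for genotype by treatment, Pdcd1lg2 0.997, for genotype in Sham Ly6Chi, the Cd274 to Pdcd1lg2 ratio 0.37. With an equal sum of values they were, for genotype in Sham Ly6Chi, Cd86 -0.0016. With an equal upper quartile they were, for genotype in Sham Ly6Chi, Cd86 -0.0017. With a pseudocount of 10 they were, for genotype by subset, Pdcd1lg2 -0.084, for IMQ in wt, the Cd274 to Pdcd1lg2 ratio 0.26. With 1 library left out they ranged, for subset in wt, Cd86 -0.049 to 0.21, for IMQ in N2ΔMy, Cd80 -0.11 to 0.15, Cd86 -0.15 to 0.057, Cd72 -0.10 to 0.70 and the Cd86 to Cd80 ratio -0.28 to 0.090, for genotype in Ly6Clo, Icosl -0.024 to 0.17, for genotype in IMQ Ly6Chi, Icosl -0.14 to 0.086, Cd72 -0.23 to 0.60, Cd40 -0.27 to 0.15, Cd83 -0.40 to 0.33, Pdcd1lg2 -0.997 to 0.20 and the Cd274 to Pdcd1lg2 ratio -1.24 to 0.018, for genotype in Sham Ly6Chi, Cd86 -0.047 to 0.14, for genotype by subset, Pdcd1lg2 -0.46 to 0.73, Cd274 -0.068 to 0.22, Cd86 -0.068 to 0.20 and Icosl -0.0062 to 0.22, for genotype by treatment, Pdcd1lg2 -0.75 to 0.45 and Icosl -0.0011 to 0.26, for IMQ in wt, the Cd86 to Cd80 ratio -0.20 to 0.060. With 4 libraries a group, and values near 0 for Pdcd1lg2, Cd72 and Cd83 in Ly6Chi cells after IMQ, small differences of these genes could not be resolved at this depth.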
